A study of Mus musculus with 12 samples.

Results

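The 10 genes described here encode transcription factors associated with the activation of macrophages by IL-4, namely *Egr2*, *Irf4*, *Pparg*, *Rxra*, *Myc*, *Klf4*, *Nfil3*, *Bhlhe40*, *Bhlhe41* and *Batf3*. They were taken by gene symbol from the 48623 genes of the expression table, where each symbol had 1 identifier. Values are in TPM, transcript abundances corrected for length and scaled to a sum of 1000000 in every library, so levels can be set side by side between genes.

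RNA-seq was performed on primary microglia, the resident macrophages of the brain, grown from the cortex and hippocampus of newborn mice. Knock-in (KI) cultures came from mice homozygous for the *Trem2* R47H allele on a C57BL/6J background, and wild type (WT) cultures, which the study describes as littermates, from the same background. There were 3 WT cultures (T13, T33, T43) and 3 KI cultures (T15, T22, T32), each sequenced once without treatment and once after exposure to IL-4 at 20 ng/ml for 48 h. The 12 libraries thus formed 4 groups of 3, in which IL-4 varied within a culture and genotype between cultures.

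All cells had spent weeks in serum-containing mixed glial culture before the astrocyte layer was removed by mild trypsin treatment. Per the study's methods, pups of the KI line were grown as separate cultures and genotyped afterwards, and the labels do not say which cultures shared a litter. The R47H allele of this strain is described there as lowering *Trem2* expression besides changing the protein, and gene-level TPM does not show the altered codon. *Trem2* ranged from 1190 to 1890 TPM in the 6 WT libraries and from 325 to 770 TPM in the 6 KI libraries, a difference of -1.43 on the log2 scale (SE 0.19, adjusted p = 0.00763, limma F-test). This genotype test takes both libraries of a culture as independent. With the culture as a random block the adjusted p was 0.0116 (limma).

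The cell type was checked against its markers. Every one of 12 microglial markers was above 0 in all libraries, with *Tmem119*, a membrane protein gene typical of microglia, between 28.9 and 82.0 TPM and *P2ry12* between 8.29 and 31.9 TPM. The KI culture T15 stood apart. The summed level of 8 astrocyte markers was 3300 to 4260 TPM in its libraries and 143 to 607 TPM in the others, and the microglial sum was 8410 to 14200 TPM against 14600 to 24600 TPM. The sum of 9 mural cell and fibroblast markers was 704 to 1320 TPM in KI and 145 to 560 TPM in WT, without overlap, and rested on *Acta2* and *Tagln*. The sum of the other 7 overlapped, with 9.97 to 67.5 TPM in KI and 12.3 to 179 TPM in WT. In such bulk libraries, fewer cells of a type and less RNA per cell cannot be told apart.

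**Figure D1:**
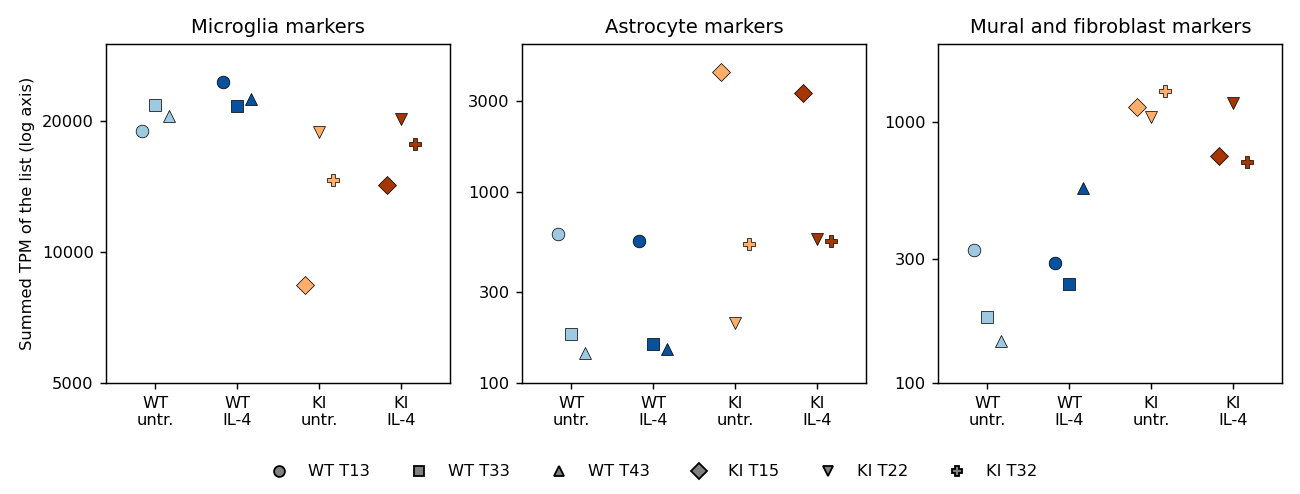
Summed TPM (log axis) of 3 marker lists in each library, by group (WT or KI, untreated or IL-4), with 1 symbol per culture. Culture T15 has the highest astrocyte sums (3300 and 4260 TPM), and the mural cell and fibroblast sums, which rest on *Acta2* and *Tagln*, are higher in the KI libraries (704 to 1320 TPM) than in the WT libraries (145 to 560 TPM).

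IL-4 binds a receptor whose associated JAK kinases phosphorylate STAT6, which then enters the nucleus and switches on genes of alternative activation. Some of these genes encode further transcription factors that carry the response on. EGR2 is a zinc-finger activator, PPARG is a lipid-sensing nuclear receptor that binds DNA as a heterodimer with RXRA, and IRF4, KLF4 and MYC are each known to take part in alternative activation of macrophages. NFIL3 and BATF3 are basic leucine zipper factors, and BHLHE40 and BHLHE41 are closely related basic helix-loop-helix repressors that bind E-boxes and also act in the circadian clock.

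Promoter sequences are shown for the 3 members that rose with IL-4 together (*Egr2*, *Nfil3*, *Batf3*) and for *Bhlhe41*, an E-box-binding repressor that did not pass the test, so that the sequence upstream of each start can be read beside the response. They come from RefSeq (GRCm38.p6), whose table held promoters of 8 of the 10 members, each 300 bases from 250 before to 50 after the start. Printed is the part before the annotated 5′ untranslated region, extended by 3 bases for *Egr2* so that a motif is whole. That region begins before the start counted here. Of the 250 bases before this start, only the first 229 (*Egr2*), 216 (*Nfil3*), 161 (*Batf3*) and 112 (*Bhlhe41*) are printed, and the bases next to it are not shown. The stretches are chr10:67535249-67535477 (plus strand) for *Egr2*, chr13:52981074-52981289 (minus strand) for *Nfil3*, chr1:191098164-191098324 (plus strand) for *Batf3* and chr6:145865559-145865670 (minus strand) for *Bhlhe41*, each read 5′ to 3′. Capitals mark matches to 4 searched motifs.
Egr2: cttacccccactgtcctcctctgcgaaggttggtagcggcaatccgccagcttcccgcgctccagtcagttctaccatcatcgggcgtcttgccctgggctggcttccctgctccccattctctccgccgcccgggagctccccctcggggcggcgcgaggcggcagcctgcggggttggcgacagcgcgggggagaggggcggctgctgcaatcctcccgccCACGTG
Nfil3: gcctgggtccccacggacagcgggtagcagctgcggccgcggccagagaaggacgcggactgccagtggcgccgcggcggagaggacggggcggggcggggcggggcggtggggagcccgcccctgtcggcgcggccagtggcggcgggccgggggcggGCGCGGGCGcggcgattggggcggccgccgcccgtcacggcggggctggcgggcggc
Batf3: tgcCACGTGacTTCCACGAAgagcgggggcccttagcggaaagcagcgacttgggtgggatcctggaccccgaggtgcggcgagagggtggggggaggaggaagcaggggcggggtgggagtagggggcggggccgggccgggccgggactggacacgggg
Bhlhe41: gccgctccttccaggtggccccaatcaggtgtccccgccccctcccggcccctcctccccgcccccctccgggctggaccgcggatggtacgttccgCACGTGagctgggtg

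The motifs searched, on both strands, were TTCNNNNGAA (the STAT6 type of STAT site), TTCNNNGAA (the general STAT site), the E-box CACGTG and the EGR site GCGNGGGCG. Among all 32851 RefSeq promoters of this length, 6.95% held the STAT6-type letters, 8.3% the general STAT letters, 7.15% the E-box and 5.55% the EGR letters. The 8 member promoters nearest to the gene start held 61.0 to 83.0% G and C, against a median of 52.7% over all promoters. These shares are thus not from promoters of like base composition. TTCNNNNGAA was in none of the 8 member promoters nearest to the gene start. The general STAT letters were in *Batf3* alone, where they begin 239 bases before the start, beside an E-box that begins at 247 bases before it and shares no base with them. E-boxes were also in *Egr2* (27 bases before the start), *Bhlhe41* (153) and *Klf4* (182), and EGR letters in *Nfil3* (91), *Klf4* (2 matches) and, after the start, *Rxra*. These matches are letters in a window and say nothing of binding. In the GENCODE annotation (vM21, GRCm38), the *Batf3* matches lie within an exon of *Batf3* transcripts typed as processed transcripts, without a coding sequence.

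Of the 8 members above the expression limit (a mean log2(TPM + 1) above 1.5), 3 rose with IL-4 and 0 fell in limma's moderated F-test, with Benjamini-Hochberg adjustment over 11204 genes and a threshold of 0.05. Of all genes tested, 0.75% rose and 0.143% fell in that test. At an unadjusted p under 0.05, 6 members were higher and 0 lower, against 5.13% and 2.13% of all genes. With the culture as a block, which compares the libraries of a culture with each other, 6 of 8 members rose and 0 fell, whereas 1.79% of all genes rose and 0.348% fell. The median IL-4 difference of the 8 members was 1.42 on the log2 scale and that of all genes tested was 0.04. As the members were chosen with earlier results of these data known, these comparisons are a description. All differences below are in log2(TPM + 1), IL-4 minus untreated averaged over the genotypes, and understate the change of low genes.

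**Figure D2:**
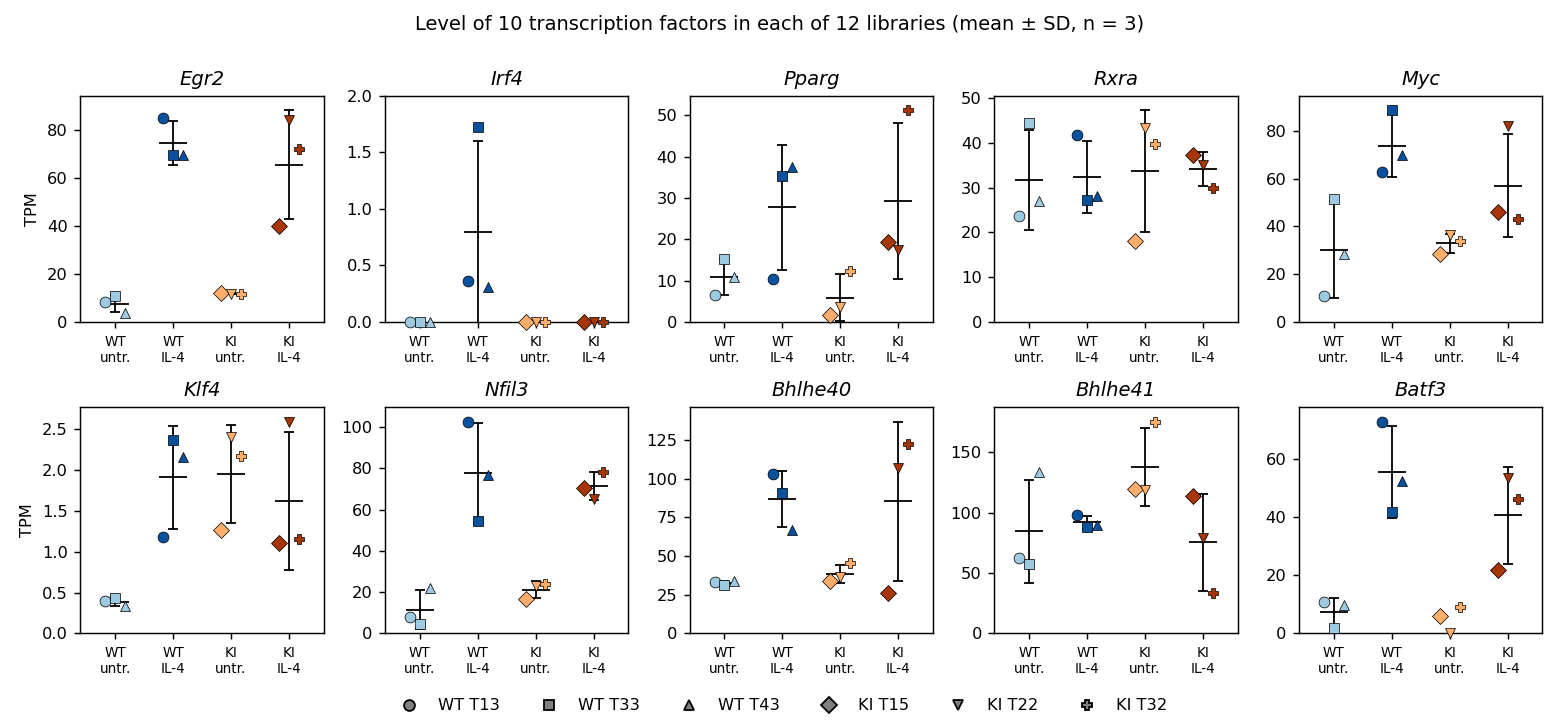
TPM of each transcription factor in the 12 libraries by group (untr., untreated), with 1 symbol per culture and black bars for the mean ± SD of 3 libraries, omitted where a group holds a value listed at 0. The untreated and IL-4 libraries do not overlap for *Egr2*, *Nfil3* and *Batf3*, whereas *Rxra* lies between 18.1 and 44.5 TPM throughout.

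*Egr2* (ENSMUSG00000037868, chr10:67535475-67542188, plus strand) stood at 8.38, 10.95 and 3.87 TPM in untreated T13, T33 and T43 of the WT, and at 85.3, 69.5 and 69.7 TPM after IL-4. The KI cultures T15, T22 and T32 had 12.3, 11.7 and 11.8 TPM untreated and 40.3, 84.3 and 72.3 TPM after IL-4. The 6 treated libraries were all above the 6 untreated ones, and the lowest of them was T15. *Egr2* was 10.2-, 6.35- and 18.0-fold higher with IL-4 in the WT cultures and 3.27-, 7.20- and 6.13-fold higher in the KI cultures. The average difference was 2.75 (SE 0.24, adjusted p = 0.000101, limma F-test), and it stayed past the threshold without any 1 of the 6 cultures (adjusted p from 9.8e-05 to 0.00266, limma).

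*Nfil3* (ENSMUSG00000056749, chr13:52967209-52981073, minus strand), a basic leucine zipper factor that regulates cytokine genes, had 8.15, 4.30 and 21.97 TPM in untreated WT T13, T33 and T43, and 102.7, 54.3 and 76.8 TPM after IL-4. Its KI values were 16.6, 22.9 and 24.1 TPM in untreated T15, T22 and T32, and 70.7, 65.1 and 78.3 TPM after IL-4. Again no treated library overlapped the untreated ones, and T15 was not unusual. The rise was 12.6-fold in T13 and in T33 and 2.84- to 4.26-fold in the other 4 cultures. Over both genotypes the difference was 2.30 (SE 0.30, adjusted p = 0.00259, limma F-test) and also held without any 1 culture (adjusted p up to 0.0398, limma). With no expression filter it missed the threshold (adjusted p = 0.0772, limma).

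*Batf3* (ENSMUSG00000026630, chr1:191097847-191108945, plus strand), which pairs with JUN proteins and is best known from dendritic cell development, had 10.7, 1.91 and 9.71 TPM in untreated WT and 73.0, 41.7 and 52.5 TPM after IL-4. In KI it had 6.09 TPM in T15, was listed at 0 in T22 and had 9.18 TPM in T32 without IL-4, and 21.8, 53.7 and 46.5 TPM with it. All treated libraries were above all untreated ones, with T15 the lowest of the treated. Averaged over the genotypes, *Batf3* differed by 3.09 (SE 0.53, adjusted p = 0.0298, limma F-test), to which the value at 0 contributes. Without T22 it was 2.45 (adjusted p = 0.0278, limma). The call was lost without T32 (adjusted p = 0.0611), T13 (0.121), T33 (0.130) or T43 (0.161) in limma's F-test, but with the culture block it held in all 6 fits that left out a culture (adjusted p up to 0.0379, limma).

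For these 3 members all treated libraries were above all untreated ones, as for 1.12% of all genes tested, and 5 members were higher with IL-4 in all 6 cultures, as were 5.73% of all genes. The other 2 of these 5 were *Pparg* and *Myc*. Of the levels after IL-4, *Nfil3* (mean 74.6 ± 16.3 TPM, SD, n = 6) and *Egr2* (70.2 ± 16.3 TPM) were higher than *Batf3* (48.2 ± 16.8 TPM), but the ranges of all 3 overlapped.

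**Figure D3:**
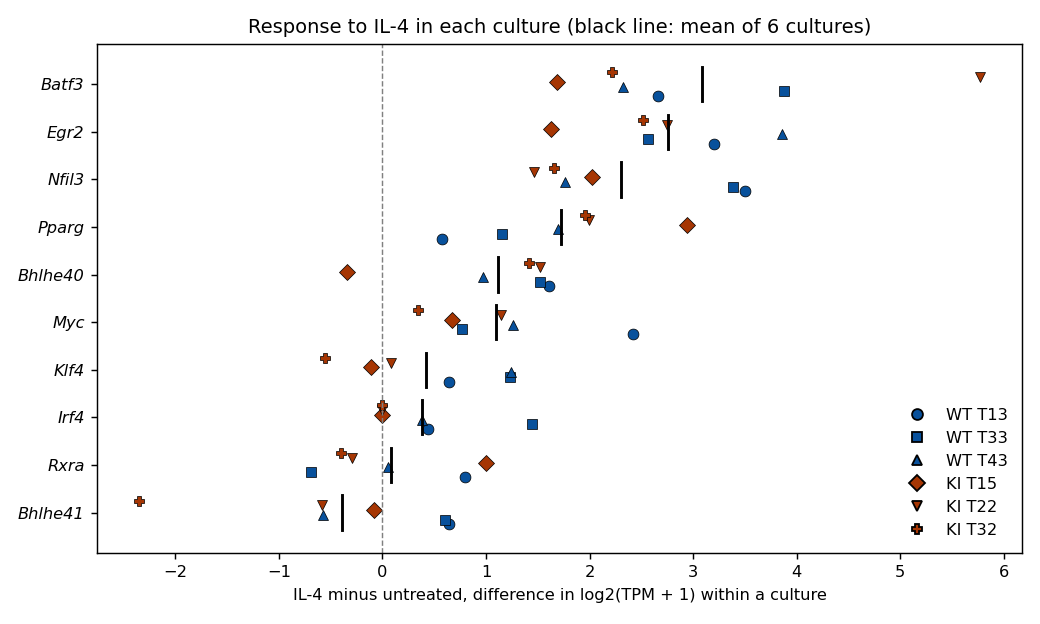
Difference in log2(TPM + 1) between the IL-4 and the untreated library of each culture, by gene, for WT (blue) and KI (brown) cultures, with a black line at the mean of 6 cultures. All 6 cultures lie above 0 for *Batf3*, *Egr2*, *Nfil3*, *Pparg* and *Myc*, whereas *Rxra* and *Bhlhe41* lie on both sides. The point of *Batf3* in T22 (5.77) rests on an untreated value listed at 0, as do all points of *Irf4*.

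*Pparg* (ENSMUSG00000000440, chr6:115360951-115490399, plus strand) had 6.57, 15.3 and 10.9 TPM in untreated WT and 10.3, 35.3 and 37.5 TPM after IL-4. The KI levels were 1.66, 3.62 and 12.5 TPM without and 19.4, 17.4 and 51.1 TPM with IL-4. It was higher with IL-4 in every culture, from 1.57-fold in T13 to 11.7-fold in T15, although the groups overlapped, since the treated T13 library was below the untreated T33, T43 and T32 libraries. *Pparg* differed by 1.72 on average (SE 0.45, adjusted p = 0.234) in limma's F-test without a block and passed with the culture block (SE 0.27, adjusted p = 0.0077, limma), also in all 6 blocked fits without a culture (adjusted p up to 0.0447, limma).

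*Rxra* (ENSMUSG00000015846, chr2:27676440-27762957, plus strand), the partner of PPARG, had 23.6, 44.5 and 27.0 TPM in untreated WT and 41.7, 27.3 and 28.1 TPM after IL-4. Levels in KI were 18.1, 43.2 and 39.6 TPM without and 37.3, 35.1 and 29.9 TPM with IL-4. The levels overlapped throughout, and 3 cultures were higher and 3 lower with IL-4. The average difference was 0.08 (SE 0.24, adjusted p = 1.0, limma F-test), and its sign changed without T13 or T15 (-0.10 and -0.14).

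*Myc* (ENSMUSG00000022346, chr15:61985391-61990374, plus strand), a regulator of growth and metabolism, had 10.9, 51.5 and 28.6 TPM in untreated WT and 62.9, 88.5 and 69.8 TPM after IL-4. KI cultures had 28.4, 36.5 and 33.9 TPM without and 45.9, 81.8 and 43.3 TPM with IL-4. Every culture was higher with IL-4, from 1.28-fold in T32 to 5.75-fold in T13, but the untreated T33 library was above the treated T15 and T32 libraries. *Myc* thus differed by 1.10 on average (SE 0.30, adjusted p = 0.266) in limma's F-test and passed with the culture block (SE 0.21, adjusted p = 0.0289, limma). The blocked call was lost without T15 (adjusted p = 0.0550), T13 (0.130) or T43 (0.146), again by limma.

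*Bhlhe40* (ENSMUSG00000030103, chr6:108660629-108666925, plus strand) had 33.1, 30.98 and 33.7 TPM in untreated WT and 102.9, 90.6 and 67.0 TPM after IL-4. The corresponding KI values were 33.5, 36.6 and 45.2 TPM in untreated T15, T22 and T32, and 26.3, 107.0 and 122.3 TPM after IL-4. All treated libraries but T15 were above all untreated ones, and the treated T15 library was the lowest of the 12. The average difference was 1.12 (SE 0.30, adjusted p = 0.296) in limma's F-test and 1.42 (SE 0.16, adjusted p = 0.00114) without T15, the culture with high astrocyte markers. With the culture block the adjusted p was 0.0483 over all 6 cultures and 0.00167 without T15 (limma), and without any other culture it was between 0.0607 and 0.217. Whether the other cells of T15 played a part in its low value was not tested.

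*Bhlhe41* (ENSMUSG00000030256, chr6:145858243-145865558, minus strand) had 62.4, 57.8 and 133.6 TPM in untreated WT and 98.1, 88.2 and 89.5 TPM after IL-4. Its KI levels were 120.0, 118.7 and 175.6 TPM without and 113.7, 78.8 and 33.7 TPM with IL-4. It was higher with IL-4 in T13 and T33 and lower in the other 4 cultures, most in T32, and the groups overlapped. The average difference was -0.39 (SE 0.27, adjusted p = 0.707, limma F-test) and only -0.05 without T32. In untreated libraries *Bhlhe41* had the highest mean of the 10 members (111 ± 44.8 TPM, SD, n = 6), above *Bhlhe40* (35.5 ± 5.08 TPM) in every library.

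*Irf4* and *Klf4* were under the expression limit. The tests of *Klf4* come from a fit of all 29745 genes above 0 in a library. *Irf4* (ENSMUSG00000021356, chr13:30749226-30766976, plus strand), an interferon regulatory factor of alternative activation, was listed at 0 in the 6 untreated libraries, and likewise in the 3 KI libraries with IL-4. It had 0.362, 1.73 and 0.308 TPM in treated T13, T33 and T43, so the genotypes did not overlap after IL-4, at levels near 0. No fold is given against values listed at 0. As 9 of its 12 values were 0, no test of *Irf4* is given.

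*Klf4* (ENSMUSG00000003032, chr4:55527143-55532466, minus strand), a zinc-finger factor, had 0.396, 0.438 and 0.334 TPM in untreated WT and 1.18, 2.37 and 2.16 TPM after IL-4. The KI cultures had 1.26, 2.40 and 2.17 TPM without and 1.10, 2.59 and 1.16 TPM with IL-4. The 3 untreated WT libraries were the lowest of the 12, and the other groups overlapped. The IL-4 difference was 1.04 in WT and -0.19 in KI (SE 0.37 each), an interaction of -1.23 (SE 0.53, adjusted p = 0.896, limma without the filter). Neither the IL-4 F-test (adjusted p = 0.867) nor the genotype F-test (adjusted p = 0.612) passed in that fit.

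**Figure D4:**
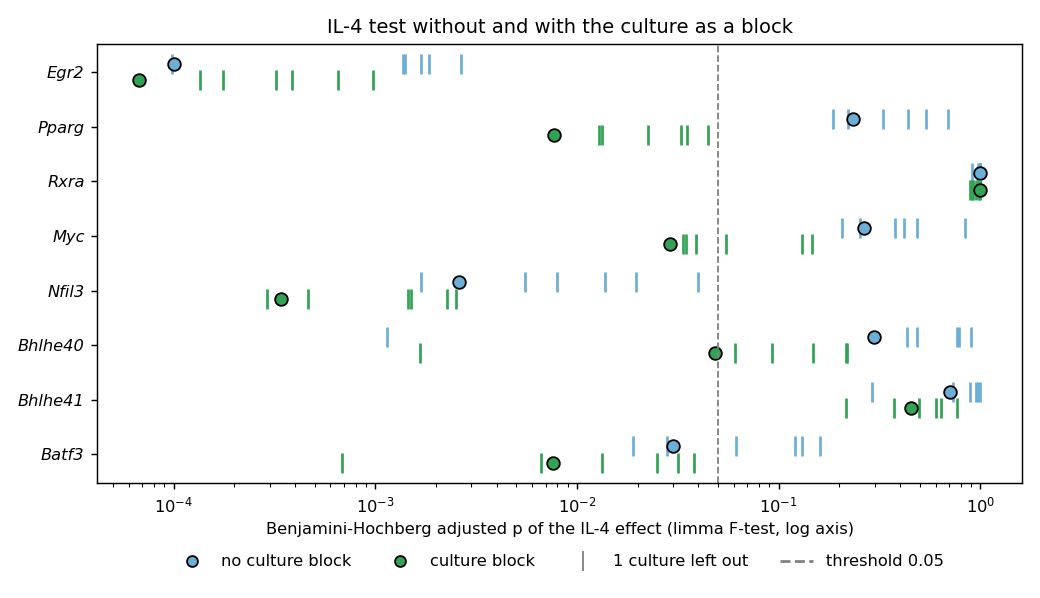
Adjusted p of the IL-4 effect (limma F-test, log axis) for the 8 members tested, without (blue) and with (green) the culture as a block. Circles are fits of all 6 cultures, ticks are fits without 1 culture, and the dashed line is the threshold of 0.05. *Egr2* and *Nfil3* are left of the line in all fits shown, *Pparg* in all blocked fits, and *Rxra* and *Bhlhe41* in none.

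Between the genotypes, 0 of the 8 members tested passed the threshold in limma's F-test of KI against WT, and 0 had an unadjusted p under 0.05. Of all genes tested, 1.65% passed, and 16.1% had an unadjusted p under 0.05. With the culture as a random block, again 0 members passed. The median difference of the members, KI minus WT averaged over treatments, was 0.02 on the log2 scale, against 0.13 for all genes tested, a shift that fell to 0.02 after median-ratio scaling and to -0.08 after quantile normalisation. The members' averages ran from -0.64 for *Batf3* (SE 0.53, adjusted p = 0.788) to 0.50 for *Nfil3* (SE 0.30, adjusted p = 0.354, limma F-test).

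In untreated cultures *Egr2* did not overlap between the genotypes, with a mean of 11.9 ± 0.331 TPM in KI and 7.73 ± 3.59 TPM in WT (SD, n = 3 each), as was so for 18.2% of all genes tested. The difference was 0.66 (SE 0.35), and the genotype F-test of *Egr2* gave an adjusted p of 0.514 (limma). *Nfil3* differed by 1.08 (SE 0.42) with overlap, since the untreated T43 library (21.97 TPM) was within the KI range. After IL-4, 0 of the 8 members tested were without overlap, against 18.5% of all genes.

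**Figure D5:**
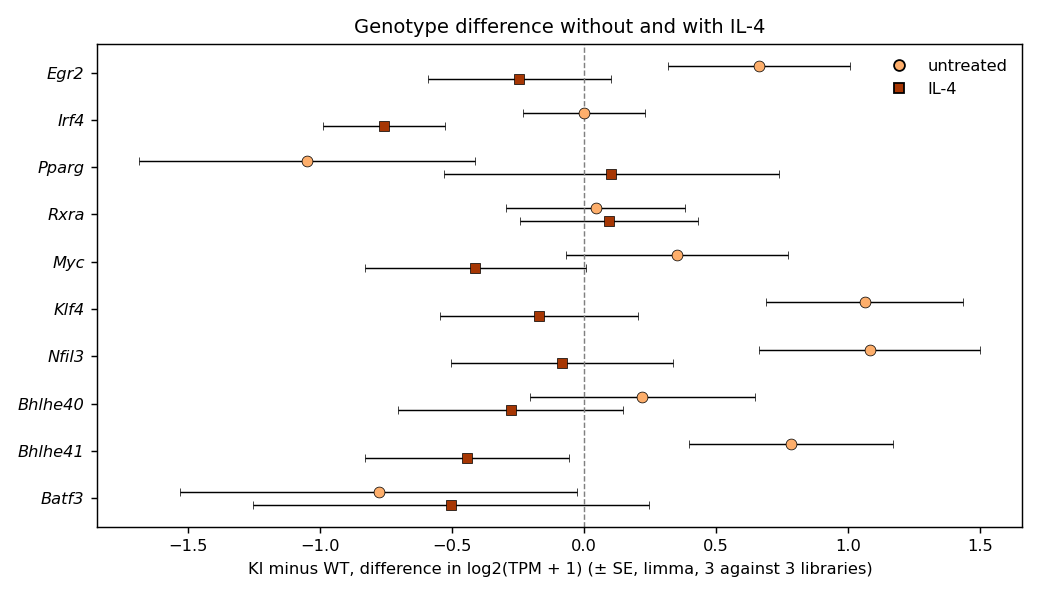
Difference between KI and WT in log2(TPM + 1), with standard errors from limma, for untreated libraries (circles) and IL-4 libraries (squares), 3 against 3. Untreated *Nfil3* (1.08) and *Klf4* (1.06) lie farthest to the right and untreated *Pparg* (-1.05) farthest to the left, while after IL-4 *Irf4* is lowest (-0.76), where its KI values are all listed at 0. The standard errors are pooled over the groups. The bar of untreated *Irf4*, with all values listed at 0, thus measures no spread between untreated cultures.

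The question whether IL-4 acted alike in both genotypes was put to the interaction. It passed for 0 of the 8 members in limma, as for 0.0% of all genes tested, and with the culture block it again passed for 0. At an unadjusted p under 0.05, 357 genes were found (3.19%), below the share that this threshold allows without any interaction. Among them was 1 tested member, *Bhlhe41*, whose IL-4 difference was 0.23 in WT and -1.003 in KI (SE 0.39 each). Within the KI cultures it was -2.35 in T32, -0.59 in T22 and -0.08 in T15. The IL-4 difference of *Egr2* was 3.21 in WT and 2.30 in KI (SE 0.35 each), that of *Nfil3* 2.88 and 1.72 (SE 0.42 each), and that of *Myc* 1.48 and 0.72 (SE 0.42 each). For *Pparg* the order was the opposite, with 1.14 in WT and 2.30 in KI (SE 0.64 each). The interaction (the KI minus the WT difference) had a median of -0.63 over the 8 members, against -0.07 for all genes tested, and its sign differed between members. These differences did not pass their own test (adjusted p = 1.0 for each in limma), which does not show that the genotypes responded alike.

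The genes most like each member were found by Pearson correlation of log2(TPM + 1) over the 12 libraries, as a description, since the libraries share the IL-4 treatment and come in pairs of a culture. *Egr2* was followed most closely by *Itgax* (0.98), an integrin gene, *Sh3glb1* (0.97) and *Ap2m1* (0.97). *Nfil3* was followed by *Fchsd2* (0.96), *Clec4a3* (0.93) and *Socs1* (0.92), and *Batf3* by *Secisbp2l* (0.93), *Serpinb6b* (0.93) and *Sft2d2* (0.92). Of these 9 genes, 8 rose with IL-4, and *Secisbp2l* did not pass. *Pparg* was most like *Sh3pxd2b* (0.93), *Taldo1* (0.90) and *Cep95* (0.90), *Myc* most like *Ap2s1* (0.89), *Fam129b* (0.88) and *Fkbp2* (0.88), and *Bhlhe40* most like *Tnfrsf26* (0.87), *Uimc1* (0.87) and *Sestd1* (0.85). *Rxra* was most like *Lin37* (0.89), *Cdkal1* (0.87) and *Meis3* (0.86), and *Bhlhe41* most like *Nom1* (0.90), *Zfyve16* (0.89) and *Kansl1l* (0.89). Among the members themselves, *Egr2* correlated with *Nfil3* at 0.83, *Bhlhe40* at 0.81 and *Batf3* at 0.78, whereas *Pparg* and *Rxra*, partners in a heterodimer, correlated at 0.19.

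Of 11 tested genes on the route from the IL-4 receptor to STAT6 or induced by it, 1 rose with IL-4 and 0 fell, with 4 higher and 1 lower at an unadjusted p under 0.05 (limma F-test). This was *Socs1*, a STAT-induced inhibitor of JAK kinases, with a difference of 4.25 (SE 0.39, adjusted p = 8.92e-05, limma). *Il4ra* and *Stat6*, named after their values were seen, had differences of -0.07 (SE 0.22) and 0.06 (SE 0.26). With the culture block 2 of the 11 rose, the other being the receptor chain gene *Il2rg* (0.85, adjusted p = 0.0279, limma), also named afterwards. Without T15 its blocked adjusted p was 0.0559 (limma), and 1 of the 11 rose.

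Relatives of the members were tested as well. Of 27 tested EGR, IRF, nuclear receptor, MYC-network, KLF, PAR-zipper and BATF family genes, 0 rose and 0 fell with IL-4 in limma's F-test, with 3 higher and 2 lower at an unadjusted p under 0.05. The largest differences were those of *Mxd4*, a MYC antagonist of the MAX network (1.20, SE 0.29, adjusted p = 0.138), and *Irf1* (0.87, SE 0.25, adjusted p = 0.317, limma). With the culture block 0 of the 27 rose, and 1 with the block and without T15, *Irf1* (1.09, adjusted p = 0.0359, limma). Of 13 partners and co-regulators, again 0 rose and 0 fell (1 higher and 1 lower at an unadjusted p under 0.05, limma), and the PPARG coactivator gene *Ppargc1b* differed by 1.35 (SE 0.46, adjusted p = 0.592, limma) and *Ppargc1a* by 0.63 (SE 0.56, adjusted p = 0.982).

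Downstream, of 11 tested effector genes of alternative activation, 7 rose and 0 fell (8 and 0 at an unadjusted p under 0.05, limma), with a median difference of 1.97, and 9 rose with the culture block (adding *Tgm2* and *Fn1*, named after their values were seen). With the block and without T15, 7 rose. *Fn1* was then among them (adjusted p = 0.0321), but not *Tgm2* (0.0558) or *Cd274* (0.051, limma), also named afterwards. Those that rose without the block included *Retnla*, a secreted protein of alternatively activated macrophages (9.21, SE 0.63), *Itgax* (3.63, SE 0.38) and *Clec7a* (1.97, SE 0.22), with adjusted p between 8.7e-06 and 0.000904 in limma. Of 15 tested target genes of PPARG and RXRA, 1 rose and 0 fell (3 and 1 at an unadjusted p under 0.05, limma), the fatty acid transporter gene *Cd36* (1.74, SE 0.23, adjusted p = 0.00305, limma), from 245 ± 43.9 to 819 ± 160 TPM in WT (SD, n = 3). With the block 2 of these 15 rose, *Tgm2* being the other (1.24, adjusted p = 0.0474, limma), and 1 without T15. Of 18 targets of MYC in the nucleolus and in growth, 0 rose and 0 fell (1 and 1 at an unadjusted p under 0.05, limma), with a median difference of 0.08, and the largest differences were 0.55 for *Nolc1* (SE 0.19, adjusted p = 0.638) and 0.51 for *Fbl* (SE 0.21, adjusted p = 0.798, limma), both of nucleolar proteins. Without T15 and without the block, the counts of genes that rose were the same for these lists, namely 1 for the receptor route, 7 for the effectors, 1 for the PPARG and RXRA targets and 0 for the MYC targets.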

How the data were processed

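Reads of 12 poly(A)-primed libraries were trimmed by the authors with Trim Galore and quantified with Salmon on ENSEMBL GRCm38, and gene values were obtained with tximport. Tool versions are not given in the sources used here. The deposited values are TPM. They keep no read counts. The labels give a nominal read number for the sequencing run, but the depth each library reached is unknown from TPM, so no counting interval is given. Precision is the spread between cultures, which may be partly technical.

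Values were taken as log2(TPM + 1). For the 11204 genes whose mean was above 1.5, a linear model of genotype, IL-4 and their interaction over all 12 libraries was fitted in R 4.3.3 with limma 3.58.1, using a trended prior variance. An F-test took IL-4 (or genotype) and the interaction together, and p-values were Benjamini-Hochberg adjusted. The authors tested counts with DESeq2, and limma replaced it because TPM are not counts. The limma step was tested on simulated data with independent libraries, which does not cover libraries that share a culture. Summaries and plots used Python 3.11.15 with pandas 2.3.3 and matplotlib 3.10.9.

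The number shared by an untreated and a treated library (T13 and so on) was read as their culture, which the labels do not spell out. Deviations from the group means correlated within cultures at 0.340 (T13), 0.104 (T33), 0.104 (T43), 0.378 (T15), 0.121 (T22) and 0.0792 (T32), and the highest correlation with a library of any other culture was, in that order, 0.269, 0.103, 0.110, 0.269, 0.188 and 0.188. It was thus above the value within the culture for T43, T22 and T32, and the block rests on the library names rather than on these correlations.

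The members and gene lists were chosen with earlier results of these data known. All 10 members are described. Of the other lists, up to 4 genes past the threshold with the smallest p are named, or, with none, the 2 with the largest difference, and the 3 genes most correlated with each member. Some genes that this rule would name are not reported here. Other genes are said to be named after their values were seen. Alternatives were a pseudocount of 0.1, no filter, a filter at 3, quantile normalisation, median-ratio scaling, no variance trend, a test of the averaged difference, culture blocks and leaving out each culture. Blocked fits without a culture, unfiltered versions for *Irf4* and *Klf4* and list counts without T15 were added after seeing the data. Promoters of *Myc* and *Bhlhe40* were not analysed here.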

Additional observations from a re-analysis of the deposited data

How the results depend on the processing

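The IL-4 differences of *Egr2*, *Nfil3*, *Batf3*, *Pparg*, *Myc* and *Bhlhe40* were positive in all fits run. The number of members past the threshold for IL-4 was 3, against 6 with the fixed replicate block and 1 with no filter (*Egr2*, limma), and from 2 to 5 when a culture was left out without or with the block. With no filter *Nfil3* had an adjusted p of 0.0772 and *Batf3* of 0.355 (limma), and *Batf3* also missed the threshold with a pseudocount of 0.1 (0.208) and with no variance trend (0.129). The number of all genes past it for IL-4 was 100, against 240 with the replicate block, 61 with no filter, 50 with no variance trend and 151 in the test of the averaged difference, and from 46 to 250 when a culture was left out, the values without the block being 46 without T43, 51 without T33, 56 without T13, 65 without T32, 73 without T22 and 143 without T15. For genotype it was 185, against 77 with the random replicate block, 16 with no filter, 26 with no variance trend and 575 in the test of the averaged difference, and from 3 to 191 when a culture was left out (3 without T33, 16 without T43, 49 without T15, 99 without T32). Of the genotype calls, 78.4% were higher in KI as deposited, 67.7% after median-ratio scaling and 60.0% after quantile normalisation. The interaction was past it for 0 genes, against 4 with no filter, and 0 without any 1 culture. The genotype difference of *Egr2* (0.21) turned to -0.0214 after quantile normalisation, and that of *Rxra* (0.07) to -0.0479 after median-ratio scaling and -0.117 after quantile normalisation. None of these passed a threshold, and the cause of the changes was not tested. When a culture was left out, signs also changed within these ranges: *Rxra* for IL-4 (-0.14 to 0.27), genotype (-0.0542 to 0.23) and the interaction (-0.40 to 0.42), *Egr2* for genotype (-0.0022 to 0.35), *Myc* for genotype (-0.37 to 0.29), *Bhlhe40* for genotype (-0.29 to 0.36) and the interaction (-0.83 to 0.10), and *Batf3* for the interaction (-0.998 to 1.04). Apart from *Pparg*, *Myc* and *Bhlhe40*, the replicate block changed the IL-4 call of no member. With 3 cultures a genotype and no read counts behind the TPM, no counting error can be given for the low values of *Irf4* and *Klf4*.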

Other observations

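Among lists of other genes connected with the members, 0 of 11 tested circadian clock genes, with which BHLHE40, BHLHE41 and NFIL3 are connected, rose or fell with IL-4 in limma's F-test (0 higher and 1 lower at an unadjusted p under 0.05). The largest differences were -0.72 for *Rora* (SE 0.26, adjusted p = 0.661, limma) and -0.71 for *Cry1* (SE 0.39, adjusted p = 0.914). For genotype the list also gave 0 calls (1 higher at an unadjusted p under 0.05). Of 13 immediate early genes, the class to which *Egr2* and *Myc* are often counted, 0 rose or fell with IL-4 (1 higher and 2 lower at an unadjusted p under 0.05, limma), with the largest differences -1.14 for *Nr4a1* (SE 0.63) and -0.79 for *Nr4a2* (SE 0.56, adjusted p = 0.942 for both). In KI, 1 of these 13 was higher, *Ier3* (1.45, SE 0.26, adjusted p = 0.0298, limma), and 6 were so at an unadjusted p under 0.05. With the culture as a random block *Ier3* had an adjusted p of 0.0513 (limma). Of the 18 MYC targets, 1 was higher in KI, the polyamine enzyme gene *Odc1* (1.15, SE 0.20, adjusted p = 0.0305, or 0.0558 with the random block, limma), and 0 without T15.

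Of 12 microglial markers, the complement gene *C1qa* rose with IL-4 (0.79, SE 0.15, adjusted p = 0.0391, limma) and the fractalkine receptor gene *Cx3cr1* fell (-1.16, SE 0.21, adjusted p = 0.0420, limma), also with the culture block (adjusted p = 0.000195, limma). Without T15 the difference of *Cx3cr1* was -1.22 (adjusted p = 0.0611, or 0.000568 with the block, limma). With the culture block 2 of the 12 rose, the other being *Fcrls* (0.66, adjusted p = 0.0682 without and 0.00744 with the block, limma). In KI, 4 of the 12 were lower, *Aif1*, *Csf1r*, *Itgam* and *Fcrls* (from -0.93 to -0.66), and 7 were so at an unadjusted p under 0.05. Without T15 these 4 differences were between -0.94 and -0.68 and 0 passed (adjusted p from 0.0601 to 0.130, limma), and with the random block 1, *Aif1*, passed (adjusted p = 0.0291, limma). Of 5 tested mural cell and fibroblast markers, *Acta2* (2.11, SE 0.23, adjusted p = 0.00296) and *Tagln* (1.93, SE 0.26, adjusted p = 0.00626, limma) were higher in KI, also without T15. With the random block their adjusted p was 0.00803 and 0.0136 (limma). A further marker of this list, *Cspg4*, had a difference of -1.50 (SE 0.53, adjusted p = 0.287, limma) and was the 1 lower marker at an unadjusted p under 0.05. Of 4 tested markers of the oligodendrocyte lineage, *Olig1* was higher in KI (2.69, SE 0.52, adjusted p = 0.0438, limma), though not without T15 (2.11, adjusted p = 0.146, limma) or with the random block (adjusted p = 0.0634, limma), and of 7 tested astrocyte markers 0 passed (4 at an unadjusted p under 0.05). The 1 tested marker of peripheral macrophages and dendritic cells, *Ms4a7*, rose with IL-4 (0.82, SE 0.16, adjusted p = 0.0437, limma). Endothelial (1 tested) and neuronal (2 tested) markers gave 0 calls for either effect (1 endothelial marker at an unadjusted p under 0.05 for IL-4).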
